A study of Gallus gallus with 9 samples.

Results

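Kruppel-like factors (KLFs) are zinc-finger transcription factors that bind GC-rich and CACCC-type promoter elements, and 10 of them with a named probe set on the Affymetrix chicken array were followed here in hen preadipocytes. The members are KLF2, KLF3, KLF4, KLF5, KLF6, KLF7, KLF9, KLF10, KLF11 and KLF15, which the platform annotation ties to 17 of 38439 probe sets. They make up 10 of the 13009 genes that have a probe set with 1 gene symbol, and a gene with more than 1 probe set is represented by its brightest, by mean over the 9 arrays. In mouse preadipocyte lines the family acts as a relay during fat cell formation. KLF4 and KLF5 act early, KLF9 and KLF15 later and in favour of PPARG, the master regulator of adipocytes, and KLF2 and KLF3 hold differentiation back. KLF9 and KLF15 are also known targets of the glucocorticoid receptor in mammalian cells, and KLF2 and KLF6 are early response genes in many cell types.

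Preadipocytes were isolated from the abdominal fat of 3 Lohman laying hens aged 19 wk, grown to confluence and kept for 96 hr under 3 conditions, with 3 arrays labelled for each. Non-treated control cells received serum-containing medium alone. The DMIOA group received 300 μM oleic acid, insulin at 20 μg/mL, 500 nM dexamethasone, which acts as a glucocorticoid, and 0.5 mM 3-isobutyl-1-methylxanthine, which slows the breakdown of cyclic AMP. The DMIOA+20S group received the same cocktail with 5 μM 20(S)-hydroxycholesterol (20(S)), an oxysterol. The arrays are described as biological replicates, and nothing in the labels or methods ties an array to 1 hen or 1 culture, so a p-value speaks only to the spread among the arrays, and 3 arrays per group limit the precision. The values are log2 GCRMA values, on which a difference of 1 is 2-fold and weak probe sets are drawn toward a common floor. The array medians lay between 2.11 and 2.14. The preparations are primary cultures, so for every transcript fewer cells that carry it and less RNA per cell cannot be told apart.

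The similarity of the arrays did not follow their titles. Across the 38439 probe sets, which are not independent replicates, pairs of arrays with the same label correlated at r = 0.971 to 0.997 and pairs with different labels at r = 0.970 to 0.997. The values were therefore also read in 3 sets of arrays, chosen with earlier results of these data known. Set A holds control 1, control 2 and DMIOA 1, set B holds DMIOA 2, DMIOA+20S 1 and DMIOA+20S 2, and set C holds the arrays labelled replicate 3 of every group. Pairs within a set correlated at r = 0.993 to 0.997 and pairs across sets at r = 0.970 to 0.995. Set A stood apart, as its arrays correlated with those of set B at r = 0.970 to 0.975 and with those of set C at r = 0.971 to 0.976. Sets B and C did not separate in this way, since their arrays correlated with each other at r = 0.989 to 0.995, and DMIOA+20S 2 was closer to DMIOA+20S 3 of set C (r = 0.9947) than to DMIOA 2 (r = 0.9936) or DMIOA+20S 1 (r = 0.9930) of its own set. Some differences between sets B and C or A and C rest on the place of DMIOA+20S 2. For KLF2, KLF6 and KLF15 the reading with it moved to set C is given, an alternative chosen after the data were seen. For all other genes and sums the sets are as defined unless the move is stated, so such differences may rest on that array. The replicate 3 labels are also worded differently from the others, so set C and that difference in wording cannot be told apart. Tests below follow the labels. Whether every title belongs to its array was not tested, so each labelled difference, and each absence of a call, holds only for the titles as given. No treatment was assigned to the sets, and because the similarity uses all probe sets, KLFs included, values by set are given as a description with no test.

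Stromal genes were read by their summed level, the log2 of the sum of their unlogged values. It lay between 16.23 and 16.42 on all 9 arrays, and most of it came from COL1A1, COL1A2, COL3A1, VIM and DCN. Single genes were less even, with ranges from 0.19 for VIM to 0.93 for LUM and 1.11 for PDGFRA. Of the 10 genes, 7 did not overlap between sets A and B and 6 between sets A and C, against 42.9% and 43.2% of all genes. COL1A1, the main fibrillar collagen chain, read 13.80 to 14.11 and VIM, an intermediate filament of mesenchymal cells, 14.14 to 14.33. PDGFRA, a defining marker of preadipocytes in mouse, stayed weak at 1.05 to 2.15. The arrays thus carry the collagen and filament genes of stromal cells, while this receptor stayed near the array medians or below them.

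KLF2, which represses Pparg and holds back differentiation in mouse preadipocyte lines, varied most within the family. It read 10.72, 10.50 and 8.95 on control arrays 1 to 3, against 10.79, 7.06 and 9.24 on DMIOA arrays 1 to 3. On DMIOA+20S 1, 2 and 3 it read 6.89, 7.46 and 8.86. The DMIOA arrays therefore span both the highest KLF2 value and one of the lowest, and they overlap both other groups. The arrays labelled DMIOA+20S all lay below those labelled control, by a margin of 0.095 where the replicate 3 arrays meet. From lowest to highest array KLF2 ranged over 3.90 on the log2 scale, or 15.0-fold, and 167 genes, 1.28% of the 13009, had a range at least as wide.

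KLF6, a broadly expressed member that lowers the preadipocyte factor DLK1 in mouse cells, followed the same order at a smaller range. It read 12.44, 12.39 and 11.51 on control arrays 1 to 3. On DMIOA 1, 2 and 3 the values were 12.25, 10.79 and 11.80, and on DMIOA+20S arrays 1 to 3 they were 10.71, 10.76 and 11.42. As for KLF2, 1 DMIOA array sat with 2 control arrays and another with 2 DMIOA+20S arrays. The range was 1.73, or 3.32-fold, which 8.66% of genes reached.

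KLF3, a repressor that recruits CtBP corepressors and blocks differentiation in mouse preadipocyte lines, moved less. Its values were 7.49, 7.36 and 7.20 on the control arrays, 7.22, 7.03 and 7.36 on the DMIOA arrays, and 6.68, 6.77 and 7.04 on the DMIOA+20S arrays, each in the order 1, 2 and 3. The DMIOA+20S arrays lay below all control arrays here too, with a range of 0.81 over the 9 arrays that 35.2% of genes reached.

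KLF15, which activates Pparg and Glut4 in mouse preadipocyte lines and governs amino acid and lipid use in muscle and liver, ran the other way. It read 9.61, 9.65 and 10.97 on control arrays 1 to 3. DMIOA arrays 1 to 3 read 9.52, 10.10 and 10.87, and the DMIOA+20S arrays read 9.95, 10.13 and 10.90. In every labelled group the replicate 3 array was the highest, and the groups overlapped. The range of 1.45, or 2.73-fold, was reached by 12.4% of genes.

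KLF9, a promoter of late differentiation in mouse preadipocyte lines, was lowest on the same arrays on which KLF2 was highest. It read 5.38, 5.48 and 6.65 on control arrays 1 to 3, and 5.36, 6.24 and 6.16 on DMIOA arrays 1 to 3. On DMIOA+20S 1, 2 and 3 it read 6.21, 6.16 and 6.35. The DMIOA+20S arrays agreed within 0.19, while the control arrays spread over 1.27. The whole range was 1.29, or 2.44-fold, which 15.8% of genes reached.

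KLF10 and KLF11 are early genes of TGF-beta signalling in human cells and recruit the SIN3A corepressor. KLF11 read 8.62, 8.69 and 9.03 on control arrays 1 to 3, then 8.40, 9.11 and 9.19 on DMIOA arrays 1 to 3, and 9.17, 8.87 and 8.99 on DMIOA+20S arrays 1 to 3. DMIOA 1 was its lowest array, followed by control 1 and control 2. KLF10 was the steadiest member, between 7.83 and 8.16 on all 9 arrays, and its range of 0.32 was exceeded or met by 89.0% of genes.

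The other 3 members were weak on this array. KLF4, an early activator of Cebpb in mouse preadipocyte lines, read 0.88 to 1.30 and lay below the array median on every array. KLF5, which links C/EBP factors to Pparg in the mouse, read 2.09 to 2.91. KLF7, an inhibitor of adipocyte differentiation in human and chicken preadipocytes, read 1.66 to 2.60, above the array median on 6 of 9 arrays. Differences between such values are compressed by the floor, and no level can be set against that of another probe set. The median range of the 10 members was 0.88 against 0.64 for all genes, and 4 members (KLF2, KLF6, KLF9 and KLF15) had a range of at least 1, against 24.6% of all genes.

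**Figure D1:**
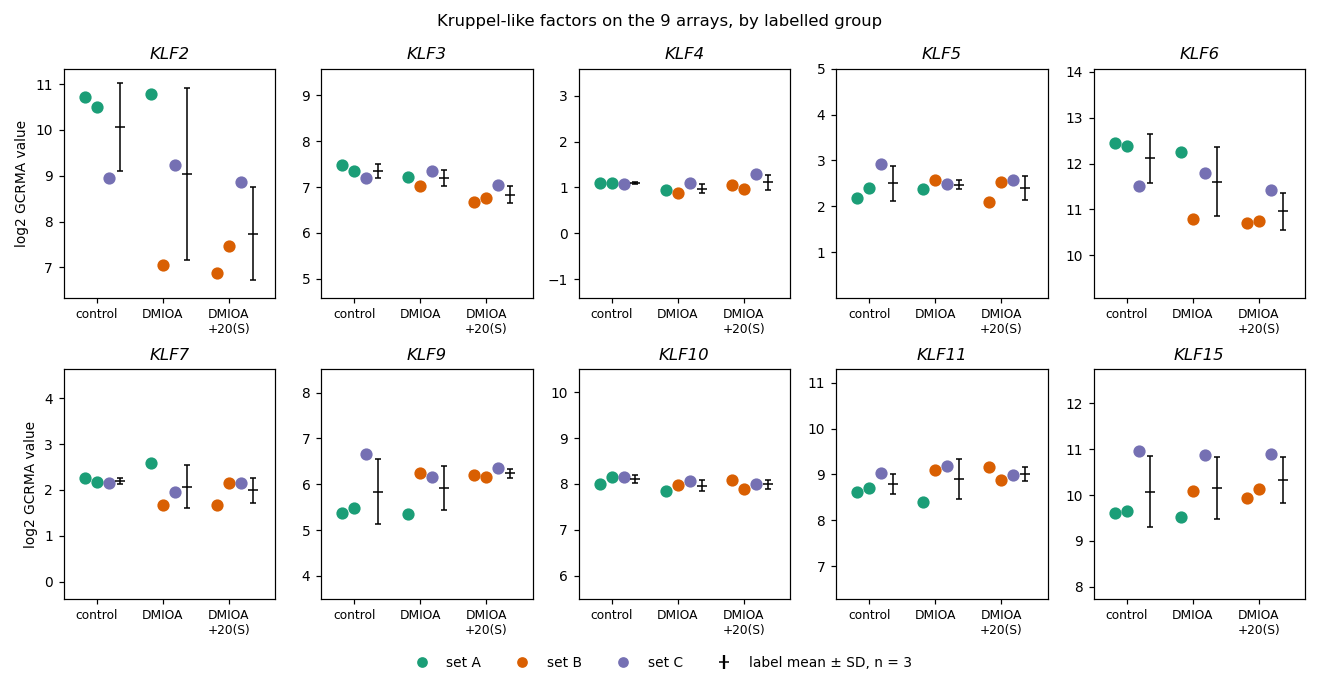
Log2 GCRMA values of the 10 Kruppel-like factors (vertical axes, all spanning the same number of log2 units) on the 9 arrays by labelled group (horizontal axes), with points coloured by set and the mean ± SD of 3 arrays beside them. KLF2 runs from 6.89 to 10.79 and has high and low arrays within the DMIOA label, while KLF10 stays between 7.83 and 8.16.

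DMIOA against control asks how the family answers the adipogenic cocktail. limma called 0 of the 10 members at an adjusted p under 0.05 with a difference of at least 2-fold, and 0 of all 38439 probe sets (0%). At an unadjusted p under 0.05 there were 0 members, against 905 probe sets (2.35%), and for 0 members did the labelled groups not overlap, against 4.26% of genes. The lowest log2 fold change of a member was -1.03 and the highest 0.11, and their median was -0.12 where that of all genes was -0.0071. KLF2 averaged 9.03 ± 1.88 (SD, n = 3) under the DMIOA label against 10.06 ± 0.96 (SD, n = 3) under the control label. Its log2 fold change was -1.03, with a standard error of 0.95 and an adjusted p = 0.994 by limma. The spread within the DMIOA label was larger than this difference. Without DMIOA 1 the KLF2 fold change was -1.91 and without DMIOA 2 it was -0.045, so it rested on which DMIOA array was kept. KLF6 differed by -0.50 (standard error 0.41), or -0.82 without DMIOA 1 and -0.091 without DMIOA 2. KLF9 and KLF15, the glucocorticoid-responsive pair, differed by 0.084 (standard error 0.35) and 0.086 (standard error 0.47). Among replicates 1 and 2 alone KLF2 differed by -1.69 (standard error 1.18) and KLF9 by 0.37 (standard error 0.30), while between the replicate 3 arrays the differences were 0.29 and -0.49, with 0.29 for KLF6 and 0.16 for KLF3.

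DMIOA+20S against DMIOA asks what the oxysterol adds to the cocktail. Again limma called 0 of 10 members and 0 of all probe sets (0%). At an unadjusted p under 0.05 there was 1 member, KLF3, against 1099 probe sets (2.86%), and 0 members had labelled groups that did not overlap, against 6.59% of genes. The median fold change of the members was -0.023 and that of all genes -0.0099, with 5 members above 0 and 5 below. KLF3 differed by -0.37 (standard error 0.14, unadjusted p = 0.0252, adjusted p = 0.977 by limma). KLF2 averaged 7.74 ± 1.01 (SD, n = 3) under the DMIOA+20S label and differed by -1.29 (standard error 0.95, limma adjusted p = 0.977), and KLF6 differed by -0.65 (standard error 0.41). For both genes the study's text gives the opposite direction, and for KLF2 it reports that direction by qRT-PCR too. The differences here hold only for the titles as given. The KLF2 difference was -0.41 without DMIOA 1 and -2.28 without DMIOA 2, and that of KLF6 was -0.33 and -1.06. Within replicates 1 and 2 the KLF2 difference was -1.75 (standard error 1.18), and between the replicate 3 arrays it was -0.38. KLF9 differed by 0.32 (standard error 0.35) and KLF15 by 0.17 (standard error 0.47).

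DMIOA+20S against control compares the cocktail and oxysterol together with no treatment, and shares its arrays with both comparisons above. limma called 0 of 10 members and 2 of all probe sets (0.0052%), both lower. These belong to TNPO1, a nuclear import receptor, and RPS6KA6, a ribosomal S6 kinase, named after their values were seen, at log2 fold changes of -1.31 and -1.15 with adjusted p = 0.0481 each. At an unadjusted p under 0.05 there were 3 members, KLF2, KLF3 and KLF6, against 3880 probe sets (10.1%). The same 3 members had labelled groups that did not overlap, against 15.6% of genes. KLF2 differed by -2.32 (standard error 0.95, unadjusted p = 0.0389, adjusted p = 0.492 by limma), KLF6 by -1.15 (standard error 0.41, unadjusted p = 0.022, adjusted p = 0.492) and KLF3 by -0.52 (standard error 0.14, unadjusted p = 0.00486, adjusted p = 0.492). None of them passed once all probe sets were accounted for. Over the alternative settings the adjusted p of a member in this comparison ran from 0.128 to 0.998. Within replicates 1 and 2 KLF2 differed by -3.44 (standard error 1.18, adjusted p = 0.315 by limma) and KLF6 by -1.68 (standard error 0.47, adjusted p = 0.313). Between the replicate 3 arrays the differences were -0.095 for KLF2, -0.084 for KLF6 and -0.16 for KLF3. The labelled difference of KLF2 and KLF6 was thus larger within replicates 1 and 2 than between the replicate 3 arrays. Within replicates 1 and 2 the control arrays lie in set A and the DMIOA+20S arrays in set B. Label and set therefore cannot be told apart there, while the replicate 3 arrays all lie in set C. KLF9 differed by 0.40 (standard error 0.35), KLF15 by 0.25 (standard error 0.47) and KLF11 by 0.23 (standard error 0.22), and the median of the 10 members was -0.11 against -0.0072 for all genes.

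**Figure D2:**
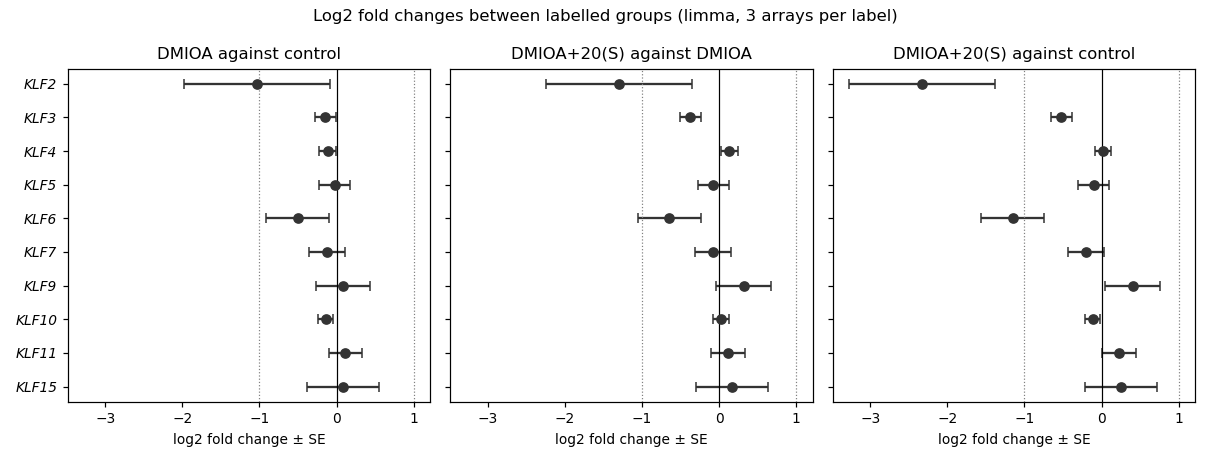
Log2 fold changes of the 10 members (horizontal axis) in the 3 labelled comparisons, with bars for the standard error of the limma fit and dotted lines at a 2-fold difference. KLF2 has the lowest value in each panel, at -1.03, -1.29 and -2.32, with a standard error of 0.95, and 0 members were called.

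Arranged by set, the values were tighter than by label for most members. The widest spread within any label was larger than the widest within any set for 9 of 10 members, with KLF10 as the exception, and for 68.7% of all genes. The sets were chosen by similarity over all probe sets, KLFs included, so a tighter spread by set follows in part from that choice. KLF2 spread over 3.73 within the DMIOA label and over at most 0.58 within a set. For KLF15 the corresponding spreads were 1.36 within the control label and 0.19. With DMIOA+20S 2 moved to set C, that set read 7.46 to 9.24 for KLF2 and 10.76 to 11.80 for KLF6. For KLF15 it then read 10.13 to 10.97. The small spreads within sets thus rest in part on that array, and the count of members was not computed with it moved.

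KLF2 formed 3 separate levels. It read 10.50 to 10.79 in set A, 8.86 to 9.24 in set C and 6.89 to 7.46 in set B. Between the nearest arrays, set A was 3.04 above set B, or 8.20-fold, and 1.26 above set C, or 2.40-fold, and set C was 1.39 above set B, or 2.63-fold. The order A, C, B had no overlap at any step. With DMIOA+20S 2 moved to set C, set B still lay below set C, at a gap of -0.41. Among all genes, a gap of at least 1 was found with set A above set B for 3.89%, with set A above set C for 3.75%, and with set B below set C for 0.392%. Of the members, KLF2 and KLF6 met the first of these, KLF2 alone the second and KLF2 alone the third.

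KLF6 kept this order at 12.25 to 12.44 in set A, 11.42 to 11.80 in set C and 10.71 to 10.79 in set B. Set A exceeded set B by 1.46 at the nearest arrays, or 2.75-fold. All 3 probe sets of KLF6 gave the order A, C, B without overlap. Their gaps from set A to set B were 1.46, 1.48 and 1.41, those from set A to set C were 0.45, 0.36 and 0.76, and those of set B below set C were -0.64, -0.83 and -0.56. With DMIOA+20S 2 moved to set C, the KLF6 probe set of highest mean overlapped between sets B and C. The other 2 probe sets did not, as set B then read 8.75 to 8.82 and 6.84 to 7.15, and set C began at 8.99 and 7.71. The single KLF3 probe set had set A 0.19 above set B, and set C overlapped set A.

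KLF15 took the order A, B, C. It read 9.52 to 9.65 in set A, 9.95 to 10.13 in set B and 10.87 to 10.97 in set C. Set C lay 1.22 above set A at the nearest arrays, or 2.32-fold, and 0.74 above set B, or 1.67-fold, while set B lay 0.29 above set A, or 1.23-fold. With DMIOA+20S 2 moved to set C, the gap of set A below set C was -0.48 and that of set B below set C -0.038. The second, weak KLF15 probe set, at 2.22 to 3.18, gave the same order without overlap. KLF15 was the only member with set A below set C by at least 1, found for 2.69% of genes, and 0 members had set A below set B by that much, found for 2.58%. Nor did any member have set B above set C by at least 1, found for 0.223% of genes.

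KLF9 separated set A from the others and did not separate those. It read 5.36 to 5.48 in set A, 6.16 to 6.24 in set B and 6.16 to 6.65 in set C, so that set A was lower by 0.68, or 1.60-fold, against either. KLF11 had the same arrangement with smaller gaps, 0.18 to set B and 0.30 to set C, and its weaker probe set, at 2.64 to 3.73, separated set A from set C only. KLF10 overlapped between all sets with both of its probe sets. Gaps of any size are common here. Between sets A and B 7 of 10 members did not overlap, against 42.9% of genes. The counts were 7 between sets A and C, against 43.2%, and 5 between sets B and C, against 20.3%. Some of these gaps were very small. The gap of set B minus set C was -0.014 for KLF3 and -0.0082 for the weak KLF4. For the weak KLF7, set A lay 0.024 above either other set. Both gaps rest on a value of 2.15 that control 3, DMIOA+20S 2 and DMIOA+20S 3 share to every digit. Between sets B and C the count was 4 after quantile normalization and 4 after median centring. The share of all genes was not computed after either step, so these counts are a description only. With DMIOA+20S 2 moved to set C, 3 members did not overlap between sets B and C. The share of all genes was not computed for that arrangement. The sets then differ in size, so 20.3% is not the share for this count.

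**Figure D3:**
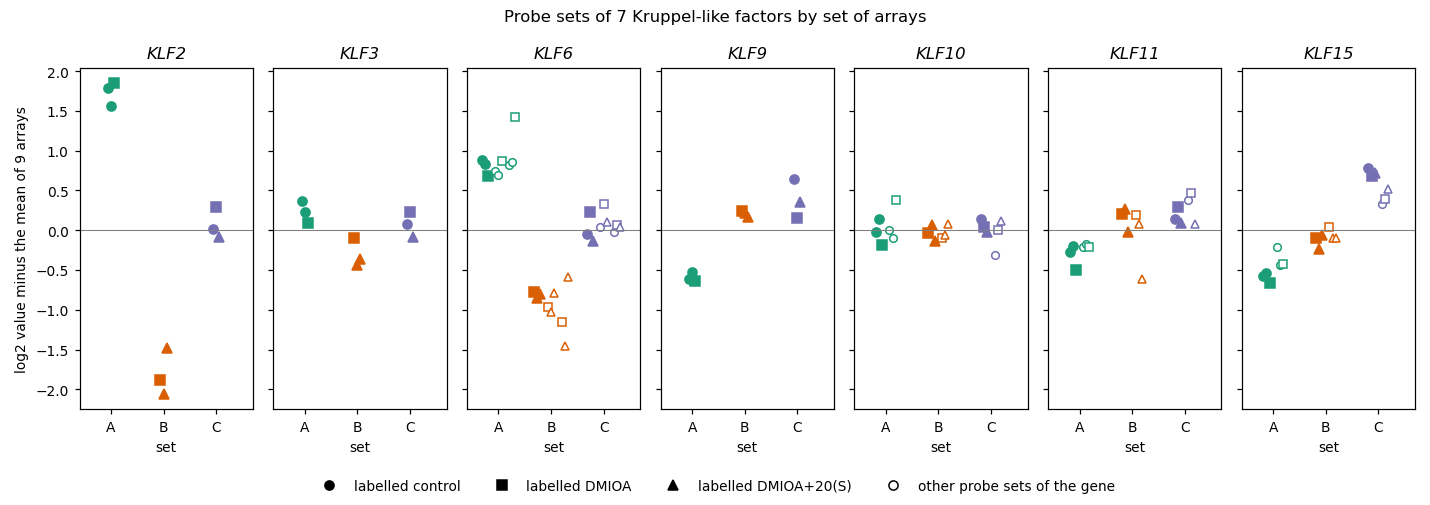
Log2 values of every probe set of 7 members, each minus its own mean over 9 arrays (vertical axis), by set (horizontal axis), with the marker shape giving the label and open markers the probe sets not used to represent the gene. KLF2 and all 3 KLF6 probe sets run A, C, B from high to low, both KLF15 probe sets run A, B, C from low to high, and KLF10 overlaps throughout.

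**Figure D4:**
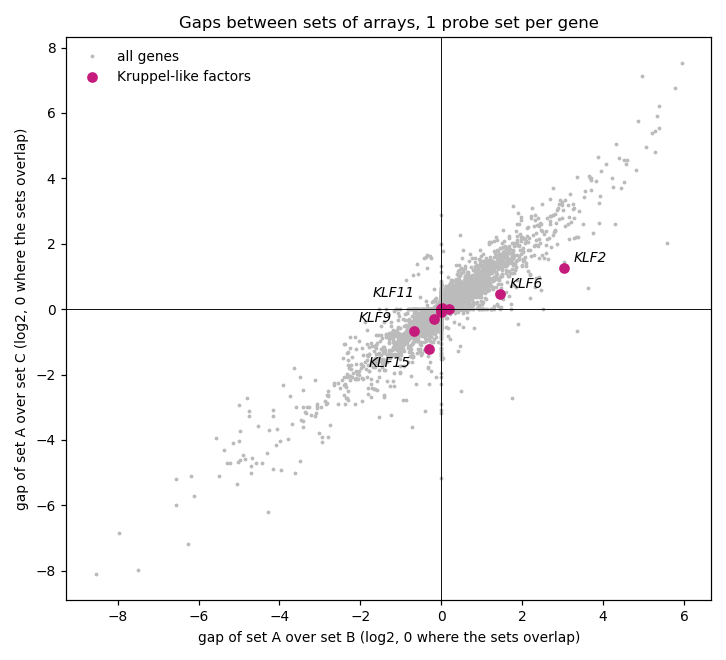
Gap between the nearest arrays of set A and set B (horizontal axis, log2) against that of set A and set C (vertical axis, log2) for 13009 genes in grey and the 10 members in colour; positive values mean that all arrays of set A were higher. KLF2 lies at 3.04 and 1.26, KLF6 at 1.46 and 0.45, KLF9 at -0.68 on both axes and KLF15 at -0.29 and -1.22.

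Only KLF2 had a range of at least 2, so genes of most similar profile were sought for it alone, by the root mean square distance of centred log2 values over the 9 arrays. The closest were PIM3, a serine/threonine kinase, at a distance of 0.35, CRIP1, a LIM-domain protein, at 0.38, and TMEM116, a membrane protein, at 0.39. PIM3 read 8.03, 8.07 and 6.52 on control arrays 1 to 3, then 7.83, 5.23 and 6.88 on DMIOA arrays 1 to 3, and 4.89, 5.49 and 6.70 on DMIOA+20S arrays 1 to 3. It shares the 3 levels of KLF2 in the same order. PIM3 was picked for its small distance on these same arrays, so this likeness follows from the choice. With DMIOA+20S 2 moved to set C, PIM3 read 4.89 to 5.23 in set B and 5.49 to 6.88 in set C. TMEM116 read 3.06 on each array of set C, the same value to every digit, so this tie cannot be read as close agreement of separate readings. Within the family KLF6 was nearest to KLF2, at 0.81, and KLF9 was farthest, at 1.80.

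**Figure D5:**
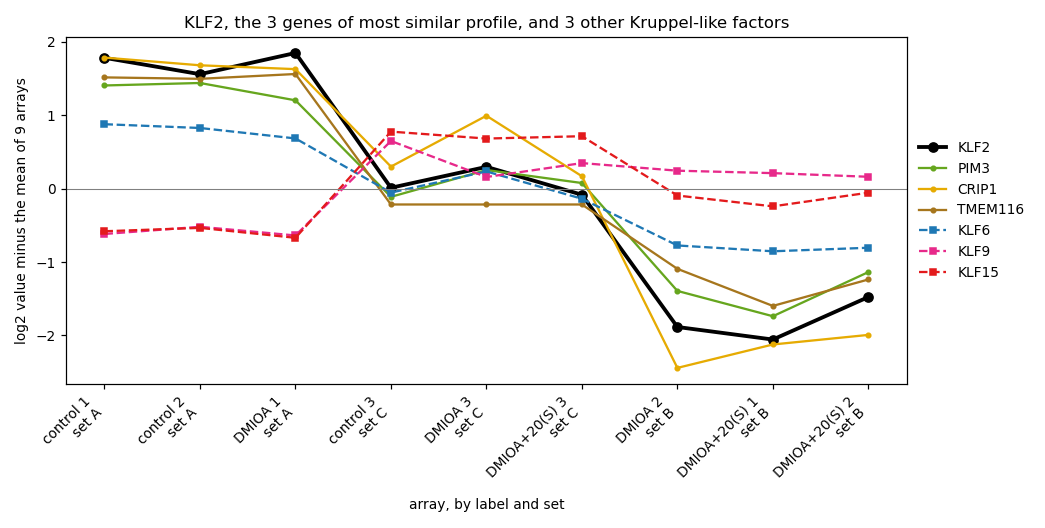
Log2 values minus the mean over 9 arrays (vertical axis) for KLF2, the 3 genes at the smallest distance from it and 3 other members, on the arrays ordered by set A, C and B (horizontal axis). KLF2 and PIM3, at a distance of 0.35, fall in 3 steps, whereas KLF9 is lowest in set A and KLF15 highest in set C.

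Of the other KLF and SP factors listed, 7 of 15 were measured and 0 were called in any comparison. In the order of the comparisons above, their median fold changes were -0.014, -0.043 and -0.0027, and 0 had a gap of at least 1 between sets. KLF13, a relative of KLF9, read 8.63 to 8.82 in set B and 9.03 to 9.32 in set A. KLF12, a CtBP-binding repressor, read 3.73 to 5.11. Cofactors and turnover factors of KLFs were measured for 14 of 15, with medians of 0.026, 0.046 and 0.041, 0 calls and 0 such gaps. Of these, HDAC1, a histone deacetylase, read 7.56 to 8.72, and WWP1, a ubiquitin ligase that targets KLF2 and KLF5 in mammals, read 5.61 to 6.75. The ERK5 and MEF2 pathway, which induces KLF2 in mammalian endothelial cells, had 6 of 8 genes measured, with medians of -0.095, -0.14 and -0.15 and 0 calls. MAPK7, the gene of ERK5 itself, and MEF2B were not measured. MAP3K3 and MAP2K5, upstream kinases of this pathway, ranged over 1.13 and 0.85. No gene of these lists had a gap between sets as large as those of KLF2.

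Adipogenic factors and targets, 14 of 16 measured, had 9, 11 and 10 members above 0 in the 3 comparisons, in the same order, with medians of 0.13, 0.30 and 0.17 and 0 calls. Between sets, 3 of them (CD36, EBF1 and FABP4) were lower in set A than in sets B and C by at least 1. PPARG itself read 8.93 to 9.30 in set A and 7.95 to 8.61 in set C, and set B overlapped both. With DMIOA+20S 2 moved to set C, PPARG overlapped between sets A and C too. CEBPB, an early adipogenic factor, was lower in set A by 0.85 against set B and 0.83 against set C. FABP4, a fatty acid carrier of adipocytes, read 10.04, 10.23 and 13.39 on control arrays 1 to 3, then 10.22, 13.60 and 13.39 on DMIOA arrays 1 to 3, and 13.69, 13.73 and 13.42 on DMIOA+20S arrays 1 to 3. Its low arrays were those of set A. Sets B and C lay 0.18 apart at the nearest arrays, and they overlapped with DMIOA+20S 2 moved to set C. Any relation of FABP4 to KLF2 was not tested. CD36, a fatty acid translocase, read 3.36 to 3.71 in set A and 7.76 to 8.85 elsewhere.

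Genes named as KLF targets in mammals, 16 of 20 measured, had medians of -0.015, -0.12 and -0.054 and 0 calls, with 7, 6 and 6 members above 0. GLUL, glutamine synthetase, read 4.17, 4.24 and 9.23 on control arrays 1 to 3, then 4.15, 8.53 and 9.24 on DMIOA arrays 1 to 3, and 8.41, 8.60 and 9.12 on DMIOA+20S arrays 1 to 3. It took the A, B, C order of KLF15, with gaps of -4.17, -4.88 and -0.51. With DMIOA+20S 2 moved to set C, GLUL read 8.41 to 8.53 in set B and 8.60 to 9.24 in set C. TAT, tyrosine aminotransferase, and FKBP5, a glucocorticoid-induced chaperone partner, were lower in set A by 1.97 and 1.99 against set B, and sets B and C overlapped for both. TAGLN and TGFB1 were higher in set A than in set B by 1.95 and 1.02. THBD and S1PR1, targets of KLF2 in mammalian endothelium, had gaps of -0.52 and 0 between sets A and B. Both were weak. THBD read 1.71 to 2.03 in set A, below the array medians, and at most 3.12 elsewhere. S1PR1 lay below the array median on all arrays.

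Some markers of other cell types differed between the sets, and their part in the KLF values was not tested. Among macrophage and leukocyte markers, 9 of 10 measured, the summed level was 7.57 to 7.80 (log2) in set A, 5.56 to 5.63 in set B and 5.46 to 5.83 in set C. By label it was 5.46 to 7.80 for control, 5.60 to 7.57 for DMIOA and 5.56 to 5.63 for DMIOA+20S, with median fold changes of -0.40, -0.35 and -0.71. NCF4 and PTPRC had the widest ranges in this list, and TLR4 lay below the array median throughout. The leukocyte sum overlapped between sets B and C, and its relation to KLF2 was not tested. Smooth muscle markers, 5 of 7 measured, summed to 13.22 to 13.28 in set A, 10.29 to 10.54 in set B and 9.98 to 10.39 in set C, with DES below the array median, and their medians were -0.79, -0.61 and -1.40. ACTA2 and MYLK had the widest ranges in this list, at 4.70 and 3.44, while most of the summed level in set A came from MYLK, at 12.88 to 13.01, followed by TAGLN, at 10.45 to 10.68. MYH11, a smooth muscle myosin heavy chain, ran the other way and was lower in set A by 0.63 against set B and 0.29 against set C. Endothelial cells are rich in KLF2 in mammals. Of 11 endothelial markers KDR, TEK, EMCN and SOX18 lay below the array median on all arrays. CDH5 and CLDN5 were the only 2 with a gap of at least 1 between sets A and B, higher in set A by 2.46 and 1.97. PECAM1, TIE1 and EGFL7 overlapped between all sets. Of the 11, 7 did not overlap between sets A and B, against 42.9% of genes. The summed level, most of it from ERG, was 9.65 to 9.77 in set A, 8.82 to 8.92 in set B and 8.58 to 8.92 in set C. The medians were -0.0052, -0.030 and -0.088.

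Mesothelial markers, 3 of 6 measured, had medians of 0.11, -0.025 and 0.080, no gap of at least 1, and MSLN below the array median. CALB2, a calcium-binding protein, was lower in set A by 0.48 and 0.54, and LRRN4 read 4.50 to 6.54. Stromal markers, 10 of 10 measured, had medians of 0.0059, 0.019 and 0.00605 and no gap of that size. Adipocyte markers, 6 of 7 measured, summed to 10.75 to 10.87 in set A, 13.86 to 13.94 in set B and 13.53 to 13.57 in set C, with medians of 0.30, 0.66 and 0.96. CIDEC, a lipid droplet protein, was lower in set A by 5.37 against set B and 4.32 against set C. The adipocyte sum ran A, C, B from low to high, and most of it came from FABP4. With DMIOA+20S 2 moved to set C, FABP4 overlapped between sets B and C. CIDEC and PNPLA2 also ran A, C, B, while LPL overlapped between all sets and ADIPOQ and PLIN1 between sets B and C. The relation of this list to KLF2 was not tested. By limma, 0 genes of any of these lists were called in any comparison.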

How the data were processed

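RNA of the 9 samples was labelled with biotin and hybridized to 1-colour Affymetrix chicken arrays. The authors corrected, normalized and summarized the scans with GCRMA in FlexArray and deposited 1 log2 value per probe set. Software versions for this step are not given in the sources used here. No further normalization was applied, and the number of arrays, not a read depth, sets the precision.

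Groups followed the titles. After 96 control probe sets were left out, 38439 were fitted with limma 3.58.1 (lmFit and eBayes) in R 4.3.3 over all 9 arrays, with Benjamini-Hochberg adjustment within each comparison and a call at an adjusted p under 0.05 with at least a 2-fold difference. The fit was also run on simulated data. Those arrays varied independently of each other and held no sets of similar arrays, so that run cannot show how the fit behaves on the arrays here. The platform annotation gives 1 symbol for 27168 probe sets, several for 177 and none for 11094. A gap is the distance between the nearest arrays of 2 sets that do not overlap. Named genes were the 10 members, the 3 genes nearest to any member with a range of at least 2, the 2 list genes of widest range, and list genes used as examples, which were chosen after their values were seen. A list's summed level is the log2 of its genes' summed unlogged values. The members and lists were chosen with earlier results of these data known. Alternatives covered blocks, subsets of arrays, the methods' t-test, eBayes with trend and robust, quantile normalization, median centring, a filter on dim probe sets (12169 left), gene means and leaving out each array. Summaries and plots used Python 3.11.15, numpy 2.4.6, pandas 2.3.3 and matplotlib 3.10.9. No sequences were used here.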

Additional observations from a re-analysis of the deposited data

How the results depend on the processing

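The log2 fold changes of KLF2, KLF3 and KLF6 kept their negative sign in all 3 comparisons under every alternative fit, but between the single replicate 3 arrays of DMIOA and control the differences were above 0, at 0.29, 0.16 and 0.29. For DMIOA against control, leaving out 1 array gave -1.91 to -0.045 for KLF2 and -0.82 to -0.091 for KLF6, and for DMIOA+20S against DMIOA -2.28 to -0.41 and -1.06 to -0.33, the ends of each range being those without DMIOA 1 and without DMIOA 2. For DMIOA+20S against control, where limma called 2 probe sets, 0 were called with the replicate number as a replicate block, with the label wording as a block, with replicates 1 and 2 only, with the arrays of the 2 groups only, with the methods' t-test after Benjamini-Hochberg adjustment, with eBayes with trend and robust, with dim probe sets left out and with gene means. Quantile normalization left 1, and leaving out 1 array at a time left between 0 and 0. The methods' t-test without adjustment called 221 of 38439 probe sets there, 81 higher and 140 lower. It called 1 for DMIOA against control and 5 for DMIOA+20S against DMIOA. Of the 10 members it called 2, KLF2 and KLF6, both for DMIOA+20S against control. The replicate block changed no call of a member. Over the 9 same-numbered pairs of arrays, deviations from the group means correlated at r = -0.56 to 0.70, with 4 pairs over 0.1. In 10 of 18 combinations of an array and another group the closest array had the same number. The sets cut across the labels and shape these deviations, so this check cannot show whether the numbers pair the arrays. They were not taken to pair them in the main fit. At any gap above 0, 7, 7 and 5 members were apart between sets A and B, A and C, and B and C. The shares of all genes were 42.9%, 43.2% and 20.3%. At a gap of at least 2 the counts of members were 1, 0 and 0, and the share of all genes at that gap was not computed. Against 2 members apart between sets A and C, gene means gave 1, and no share of all genes was computed with gene means. In an alternative chosen after the data were seen, DMIOA+20S 2 moved from set B to set C left 1 member apart between sets A and C and 0 between sets B and C. Without that array the counts were 2, 2 and 1, equal to those with it. No share of all genes was computed with that array moved or left out, so these counts are given as a description only.

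Small fold changes turned their sign. For DMIOA against control, KLF5 moved from -0.03 to 0.18 in replicates 1 and 2 and 0.041 with gene means, and KLF10 to 0.045 with gene means. Leaving out 1 array at a time gave -0.19 to 0.18 for KLF5, -0.38 to 0.084 for KLF7, -0.14 to 0.49 for KLF9, -0.032 to 0.36 for KLF11 and -0.27 to 0.53 for KLF15. For DMIOA+20S against DMIOA, gene means gave 0.026 for KLF5, -0.012 for KLF10 and -0.094 for KLF11, and leaving out 1 array gave -0.16 to 0.079 for KLF5, -0.29 to 0.18 for KLF7, -0.036 to 0.083 for KLF10, -0.13 to 0.26 for KLF11 and -0.16 to 0.52 for KLF15. For DMIOA+20S against control, KLF4 was -0.091 in replicates 1 and 2, -0.0045 after quantile normalization and -0.0031 after median centring, KLF5 was 0.026 in replicates 1 and 2 and 0.067 with gene means, and KLF10 was 0.033 with gene means. Leaving out 1 array there gave -0.079 to 0.089 for KLF4, -0.26 to 0.11 for KLF5 and -0.036 to 0.70 for KLF15. The cause of these changes was not tested. KLF4, KLF5 and KLF7 drop out under the filter on dim probe sets, so they have no value there.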
